A study of Mus musculus with 6 samples.

Results

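Axon guidance ligands and their receptors other than the EphA class were compared between retinal cells of mice given AAV2-*Ezh2* and of control mice given AAV2-*GFP*. The genes were taken by symbol from the protein-coding rows of the count table: the semaphorins (Sema), plexins, neuropilins, Robo and Slit genes, netrins, Unc5 genes, *Dcc*, *Neo1*, *Rgma*, *Rgmb*, *Draxin*, ephrins and EphB receptors. This gave 66 genes of 21980 protein-coding rows and 55573 rows in all. A pair of them, *Unc50* and *Unc5cl*, share only the letters of their symbols with the netrin receptors and were kept apart as a class of their own. Both groups were adult C57BL/6J mice of either sex whose optic nerve was crushed 2 weeks after the viral vector had been injected into the vitreous, and the control group received the same injury. Cells were sorted 3 days after the crush from dissociated retinas with an antibody to CD90.2, the product of *Thy1*, to enrich retinal ganglion cells (RGCs), whose axons form the optic nerve. AAV2 enters other retinal cells as well, so *Ezh2* overexpression was not restricted to RGCs. The data are 3 libraries of each group, and the labels do not say whether they came from separate animals, so the spread between them may in part be technical.

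Guidance ligands are secreted or membrane-bound proteins that attract or repel a growing axon. Netrins attract axons through Dcc and repel them through Unc5 receptors, Slits act through Robo receptors, class 3 semaphorins through neuropilins joined to plexins, membrane-bound semaphorins through plexins, repulsive guidance molecules through neogenin (*Neo1*), and ephrin-B ligands through EphB receptors. In the developing eye, netrin-1 and Dcc take RGC axons out through the optic disc, Slits with Robo2 keep them on course at the optic chiasm, and ephrin-B2 turns away those with EphB1. *Ezh2* encodes the methyltransferase of the Polycomb repressive complex PRC2, which marks histone H3 at lysine K27 and favours promoters rich in CpG.

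The labels were checked first. *Ezh2* was higher in every library of its group than in the 3 GFP libraries, with a log2 fold change of 1.17 ± 0.08 (SE) in the 5-library comparison. Library totals ran from 30569933 to 35971192 counts, and a count of 0 allows up to 3 counts, or 0.0834 to 0.0981 CPM, the unit of counts scaled by library totals. Ezh2 replicate 3 stood apart: its log2 CPM correlated at 0.971 and 0.972 across genes with the other Ezh2 libraries, against 0.985 to 0.988 for the other pairs within a group. The study left out 1 Ezh2 library, inferred to be this one, so the comparison set Ezh2 replicates 1 and 2 against the 3 GFP libraries, and values with all 6 libraries are given beside it. The defining RGC transcription factors were near 0 in every library: *Pou4f1* ran from 0 to 0.600 CPM and *Pou4f2* from 0 to 0.0932 CPM. The 11 RGC markers summed to 139 to 172 CPM, while the 7 markers of Müller glia, the radial support cells of the retina, summed to 16980 to 21946 CPM. The values below therefore describe the sorted mixture rather than RGCs alone.

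Levels were compared per length first, as CPM per kilobase of exon (RPKM, mean of the 5 libraries). Of the 66 genes, 22 reached at least 10 RPKM and 19 stayed under 1. The most abundant was *Neo1*, the neogenin receptor of netrins and repulsive guidance molecules, at 69.1 RPKM. *Plxnb2*, a receptor of class 4 semaphorins, followed at 58.1 RPKM, *Plxnb1*, the receptor of Sema4D, at 43.9 RPKM, and *Sema5a*, a membrane-bound semaphorin, at 36.8 RPKM. Netrin-4 (*Ntn4*) was the leading ligand of its family at 29.4 RPKM. By contrast, the axonal receptor *Dcc* stood at 0.275 RPKM and its ligand netrin-1 (*Ntn1*) at 0.133 RPKM. The Slit ligands were all scarce, with *Slit2* the highest of the 3 at 0.369 RPKM, although their receptor *Robo2* reached 5.77 RPKM. Among the EphB receptors *Ephb1* led at 17.7 RPKM, the leading ephrin-B was *Efnb1* at 13.6 RPKM and the leading ephrin-A was *Efna1* at 14.1 RPKM. The other families were led by *Sema3b* (18.7 RPKM) and *Sema4d* (24.6 RPKM) among class 3 and class 4 semaphorins, by *Nrp1* (14.0 RPKM) of the neuropilins and by *Rgma* (10.1 RPKM) of the repulsive guidance molecules.

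**Figure D1:**
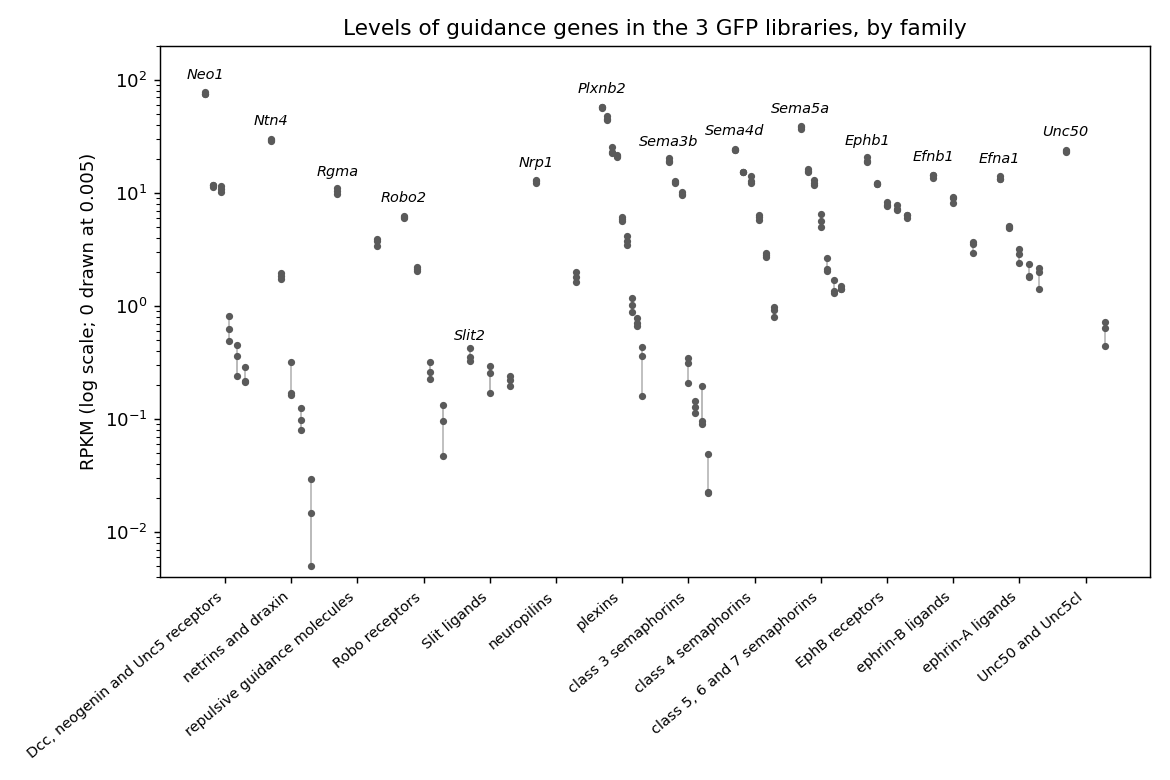
Level of each guidance gene in GFP replicates 1 to 3 in RPKM on a log axis, 1 column of 3 points a gene, grouped by family with the most abundant member named. *Neo1* and *Plxnb2* stood highest, and all 3 Slit ligands stayed under 1 RPKM.

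Changes with *Ezh2* were mostly small and ran in both directions. In the 5-library comparison, 16 of 65 tested genes passed an adjusted p of 0.05 (edgeR quasi-likelihood F test, Benjamini-Hochberg over all genes), while 17.8% of all 20241 tested genes passed. Of the 16, 5 were higher (10.1% of all tested genes were) and 11 lower (7.68%). Only *Plxna1*, higher, and *Dcc*, lower, also changed by more than 1.5-fold, 2 of 65 against 3.8% of all tested genes (2.52% higher and 1.28% lower). The share of guidance genes past the fold threshold was thus near that of all genes. Receptors held 12 of the 16 (4 higher and 8 lower of 26 receptors), and the ligands held 4 (1 higher and 3 lower of 37), a difference that was not tested. Of the 22 genes at 10 RPKM or more 8 passed, and of the 19 under 1 RPKM only *Dcc* did. The CPM values of the groups did not overlap for 38 of the 65, 25 of them lower with *Ezh2*, and the same held for 44.9% of all tested genes (23.4% lower). The median log2 fold change was -0.03 over the guidance genes and -0.0078 over all tested genes. With all 6 libraries, 7 of 64 tested genes passed against 5.78% of all tested genes, 1 higher (3.08%) and 6 lower (2.7%). *Plxna1* and *Dcc* passed the fold threshold there too, where 2.52% of all tested genes did (1.62% higher and 0.902% lower). The groups did not overlap for 28 of the 64, and for 34.2% of all tested genes.

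**Figure D2:**
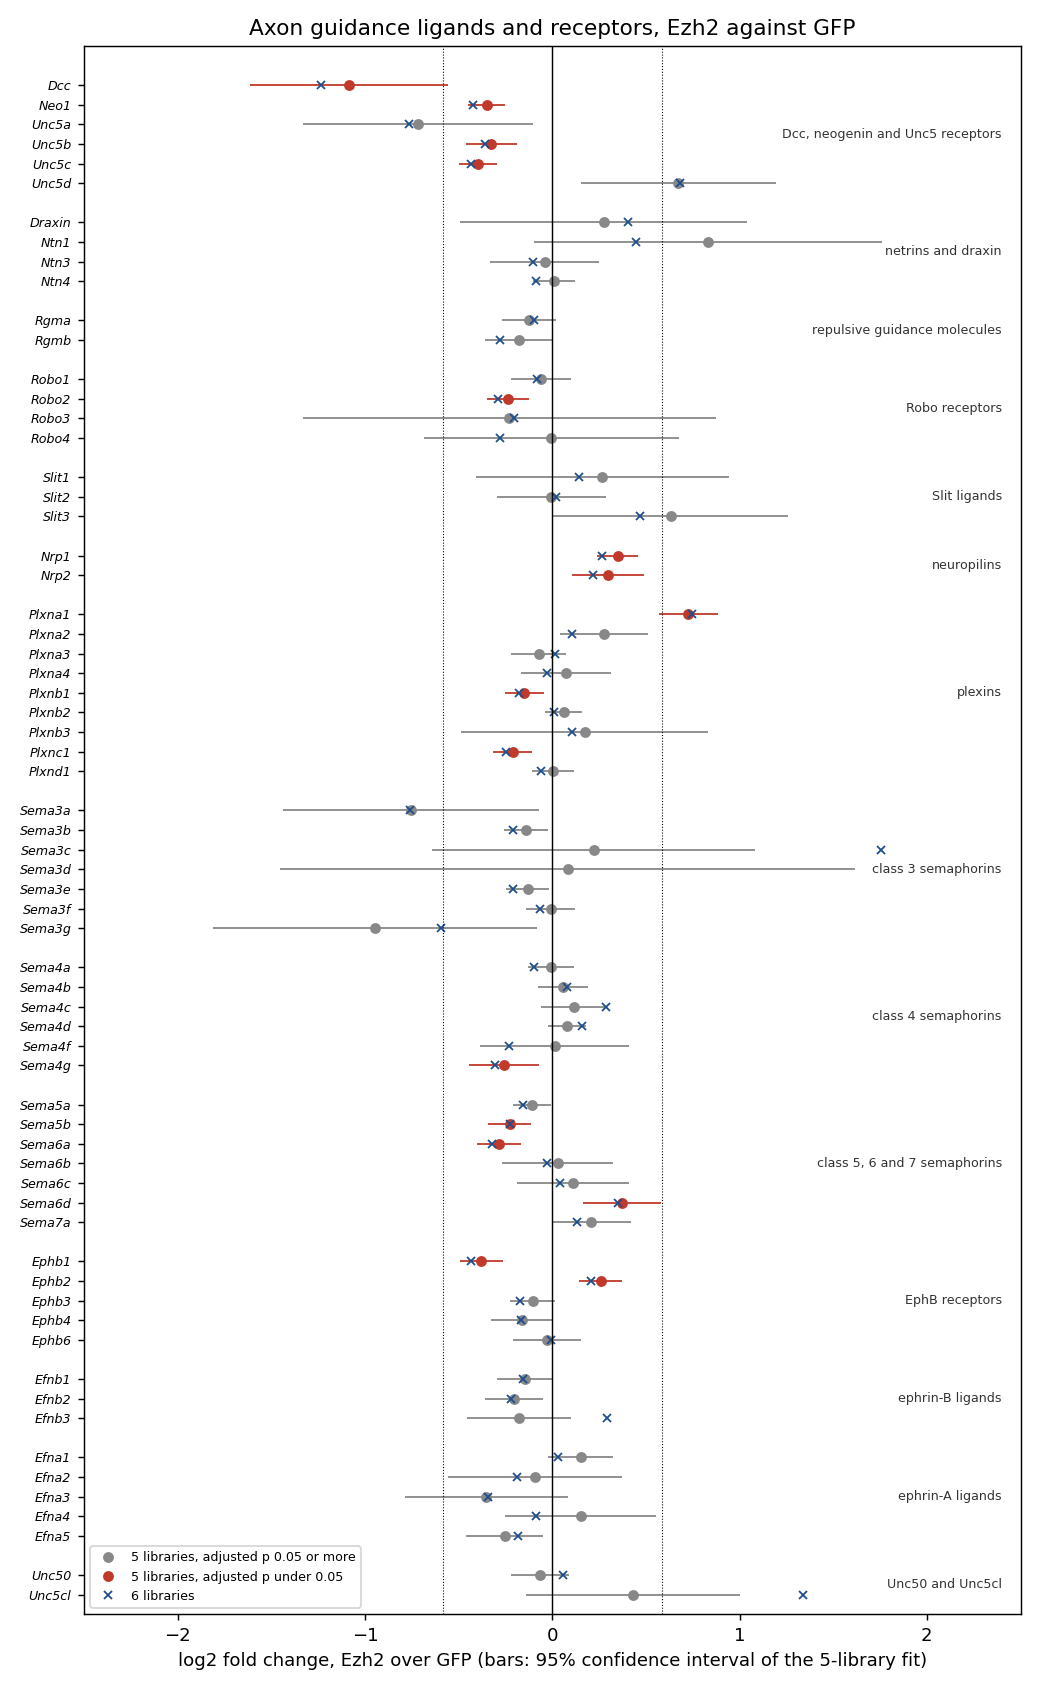
Log2 fold change of Ezh2 over GFP for each tested guidance gene, by family, with bars for the 95% confidence interval of the 5-library fit, red where the adjusted p was under 0.05, crosses for the 6-library fit, and dotted lines at 1.5-fold. Red points lie to the left for the netrin receptors and to the right for both neuropilins, and only *Plxna1* and *Dcc* lie beyond a dotted line in red.

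Of the 6 Dcc, neogenin and Unc5 receptors, 4 passed the test in both fits and all 4 were lower, against 7.68% of all tested genes with 5 libraries and 2.7% with 6, with a family median log2 fold change of -0.37 (-0.43 with 6 libraries). *Neo1* stood at 649, 657 and 676 CPM in the 3 GFP libraries, against 513 and 515 CPM in Ezh2 replicates 1 and 2. The groups did not overlap, and Ezh2 replicate 3 was lower still at 413 CPM. *Neo1* fell by 21.6% (95% interval -26.8 to -15.9%; edgeR adjusted p = 3.79e-06, and 0.0170 with 6 libraries).

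*Unc5c*, a receptor that turns netrin into a repellent, showed the same order of libraries. It stood at 225, 216 and 227 CPM in the GFP libraries and at 170 and 166 CPM in Ezh2 replicates 1 and 2, with 146 CPM in Ezh2 replicate 3. The fall was 24.0%, from 222.6 ± 5.82 to 168.0 ± 2.70 CPM (SD, n = 3 and 2; edgeR adjusted p = 9.09e-07, and 0.00782 with 6 libraries). *Unc5b*, a netrin receptor also known from blood vessels, moved from 72.4, 64.1 and 68.1 CPM to 55.8 and 52.4 CPM, and to 47.2 CPM in Ezh2 replicate 3. Its log2 fold change was -0.33 ± 0.07 (edgeR adjusted p = 0.000664, and 0.0364 with 6 libraries).

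*Dcc*, the receptor through which netrin-1 attracts axons, had the largest fold change of the genes that passed and one of the lowest levels. It stood at 5.92, 3.16 and 4.72 CPM in the GFP libraries, at 1.93 and 2.37 CPM in Ezh2 replicates 1 and 2, and at 1.42 CPM in Ezh2 replicate 3. Every Ezh2 library was below every GFP library, but the GFP libraries themselves spread widely (4.60 ± 1.39 CPM, SD). The log2 fold change was -1.08 ± 0.26 (edgeR adjusted p = 0.00292; -1.24 and 0.0391 with 6 libraries), and without GFP replicate 1, the highest, it was -0.86. The remaining members, *Unc5a* and *Unc5d*, both under 1 RPKM, gave -0.72 ± 0.30 and 0.67 ± 0.26 and did not pass (adjusted p = 0.101 and 0.0664). Without GFP replicate 1, *Unc5d* passed both thresholds at 0.83 (adjusted p = 0.0355). The ligands of these receptors did not pass: *Ntn4* kept 110.2 ± 1.64 CPM in GFP and 109.9 ± 3.53 CPM in Ezh2 libraries (SD, n = 3 and 2; 95% interval of the difference -6.84 to 8.63%), and *Draxin*, *Ntn1* and *Ntn3* had adjusted p values of 0.228 to 0.890. *Ntn5* was too low to be tested.

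The same retinal mixture holds the RNA of Müller glia, whose markers also moved. Of the 7 Müller markers, 4 were lower (*Glul* -0.49, *Rlbp1* -0.31, *Aqp4* -0.22 and *Slc1a3* -0.20 on the log2 scale), *Apoe* was higher at 0.72, and *Sox9* and *Vim* did not pass. Of all tested genes, 7.68% were lower and 10.1% higher at the adjusted p threshold. With 6 libraries 2 of the 7 were lower and 1 higher, against 2.7% and 3.08% of all tested genes. The sum of the list was 96.8% and 104% of the GFP mean in Ezh2 replicates 1 and 2 and 80.4% in Ezh2 replicate 3. Ratios, chosen after the values were seen, were taken only to the 4 markers that fell, and not to *Apoe*, *Sox9* or *Vim*. Both genes of each ratio had fallen, so overlapping ratios were likely beforehand and do not show the share of Müller glia. *Neo1* was 42.5, 44.2 and 44.0% of *Rlbp1*, a retinoid-binding protein of Müller glia, in the GFP libraries. In the Ezh2 libraries it was 43.2, 41.7 and 43.2%. The values overlapped, as did those of *Unc5b* and *Ephb1* relative to *Rlbp1*. For *Unc5c* this ratio was 14.5 to 14.8% in the GFP libraries and 14.3, 13.4 and 15.3% in Ezh2 replicates 1 to 3. Relative to *Slc1a3*, the glutamate transporter of Müller glia, *Neo1* was lower in all 3 Ezh2 libraries (30.4 to 32.4%) than in the GFP libraries (33.8 to 35.6%), and so was *Unc5c* (9.79 to 11.3% against 11.7%). Relative to *Aqp4*, the water channel of these cells, *Neo1* was also lower (55.2 to 60.6% against 62.1 to 64.4%). Relative to *Glul*, glutamine synthetase, *Neo1* was instead higher in all 3 Ezh2 libraries (7.39 to 7.58%) than in the GFP libraries (6.55 to 6.89%), so the direction of the ratio turned on the marker. The part of the Müller glia in the lower receptor levels was not tested, and in such bulk samples fewer cells of a type and less RNA per cell cannot be told apart.

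Plexins and neuropilins, which pass on semaphorin signals, held the largest rise among the genes that passed. *Plxna1*, the partner of neuropilins in class 3 semaphorin signalling and a receptor of Sema6D, stood at 34.0, 31.6 and 37.8 CPM in the GFP libraries but at 57.6, 55.6 and 55.6 CPM in Ezh2 replicates 1 to 3. All 3 Ezh2 libraries lay close together and above every GFP library. The log2 fold change was 0.73 ± 0.08, a rise of 65.4% (95% interval 48.4 to 84.5%; edgeR adjusted p = 3.50e-08, and 0.00318 with 6 libraries). *Nrp1*, which binds class 3 semaphorins and VEGF, rose from 119, 128 and 126 CPM to 155 and 159 CPM in Ezh2 replicates 1 and 2. Ezh2 replicate 3, at 123 CPM, lay among the GFP libraries. The log2 fold change of 0.35 ± 0.05 (edgeR adjusted p = 1.26e-05) became 0.27 ± 0.09 with 6 libraries and did not pass (adjusted p = 0.109). *Nrp2*, the other neuropilin, rose by 0.30 ± 0.09 on the log2 scale in the 5 libraries (edgeR adjusted p = 0.0243) but not in the 6 (adjusted p = 0.292), since Ezh2 replicate 3 (20.8 CPM) again lay within the GFP range of 19.5 to 23.6 CPM.

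The other plexins changed little. *Plxnc1*, the receptor of Sema7A, fell from 177.4 ± 1.97 to 152.3 ± 7.30 CPM (SD, n = 3 and 2; -0.21 ± 0.05 log2, edgeR adjusted p = 0.00323), and *Plxnb1* fell by 9.77% (edgeR adjusted p = 0.0408). Neither passed with 6 libraries (adjusted p = 0.0604 and 0.141), although each was lowest in Ezh2 replicate 3. The abundant *Plxnb2* and *Plxnd1*, a receptor of Sema3E, had log2 fold changes of 0.06 and 0.0033 and did not pass, with 95% intervals of -2.60 to 11.7% and -7.27 to 8.34%. *Plxna2*, *Plxna3*, *Plxna4* and *Plxnb3* did not pass either.

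**Figure D3:**
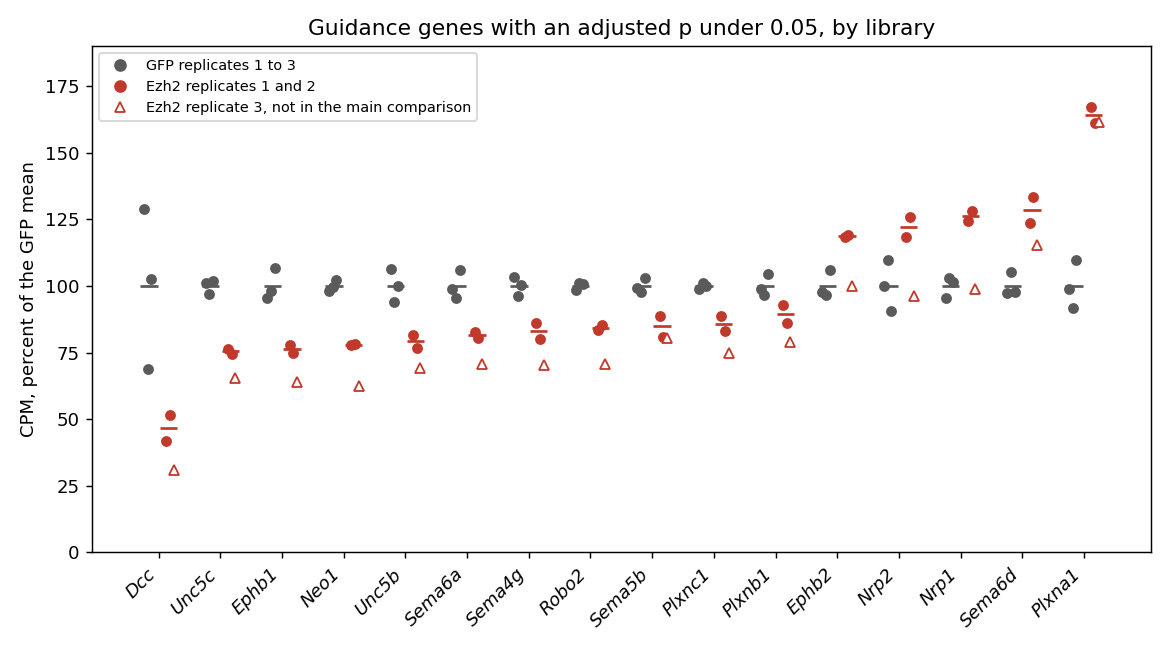
CPM of the 16 guidance genes with an adjusted p under 0.05, as a percentage of each gene's mean in the GFP libraries, with horizontal bars at the means of GFP replicates 1 to 3 and of Ezh2 replicates 1 and 2 and open triangles for Ezh2 replicate 3. The triangles lie below all circles for the 11 lower genes, beside the Ezh2 circles for *Plxna1*, and within the GFP range for *Nrp1*, *Nrp2* and *Ephb2*.

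Among the 20 semaphorins, the ligands of these receptors, 1 rose and 3 fell, with a median log2 fold change of 0.0026. Of all tested genes 10.1% rose and 7.68% fell, and counts this small cannot be set apart from those shares. With 6 libraries 1 of 19 passed, against 5.78% of all tested genes. *Sema6a*, a membrane-bound ligand of A-type plexins, reached 107.5, 104.1 and 115.3 CPM in the GFP libraries and 90.1, 87.7 and 77.1 CPM in Ezh2 replicates 1 to 3. The groups did not overlap, and *Sema6a* was the only semaphorin to pass in both fits, at -0.28 ± 0.06 log2 (edgeR adjusted p = 0.000518, and 0.0383 with 6 libraries). *Sema6d*, which meets Plxna1 at the chiasm during development, stood at 14.8, 16.0 and 14.9 CPM in the GFP libraries and at 18.8, 20.3 and 17.6 CPM in Ezh2 replicates 1 to 3. It rose by 29.5% in the 5 libraries (95% interval 12.1 to 49.6%; edgeR adjusted p = 0.00911) and had an adjusted p of 0.0904 with 6 libraries.

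*Sema5b*, which confines neurites of the inner retina, fell by 14.5% (edgeR adjusted p = 0.00385), and *Sema4g*, a class 4 semaphorin, fell by 16.3% (edgeR adjusted p = 0.0483). Neither passed with 6 libraries (adjusted p = 0.0860 and 0.111). The abundant *Sema5a*, related to *Sema5b* and also inhibitory to RGC axons, had 710.9 ± 24.4 CPM in GFP and 654.5 ± 8.69 CPM in Ezh2 libraries (SD, n = 3 and 2) and did not pass (adjusted p = 0.142). *Sema4d*, the ligand of Plxnb1, had a log2 fold change of 0.08 ± 0.05 (adjusted p = 0.316). None of the 7 class 3 semaphorins passed, which include *Sema3a*, the classical repellent that binds Nrp1, at 1.57 to 1.99 CPM in GFP and 1.03 and 1.06 CPM in Ezh2 replicates 1 and 2. Its log2 fold change was -0.76 ± 0.33 (unadjusted p = 0.0317, adjusted p = 0.124). Of the class 3 genes 4 had an unadjusted p under 0.05, all of them lower, as had 28 of the 65 tested guidance genes in either direction. The share of all tested genes at this unadjusted threshold was not taken.

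EphB receptors moved both ways. *Ephb1*, the receptor of ipsilaterally projecting RGCs, stood at 131, 135 and 146 CPM in the GFP libraries and at 107, 103 and 87.5 CPM in Ezh2 replicates 1 to 3. It fell by 23.1% (95% interval -29.0 to -16.8%; edgeR adjusted p = 8.23e-06, and 0.0164 with 6 libraries). *Ephb2*, which takes part with EphB3 in guiding RGC axons to the optic disc, rose in the 5 libraries, from 91.0, 90.1 and 98.8 CPM to 110.4 and 111.2 CPM (19.7%, edgeR adjusted p = 0.00115). In Ezh2 replicate 3 it was 93.4 CPM, within the GFP range, and the gene did not pass with 6 libraries (adjusted p = 0.144). *Ephb3*, *Ephb4* and *Ephb6* had log2 fold changes of -0.16 to -0.03 and did not pass. All 3 ephrin-B ligands had negative log2 fold changes and none passed, with *Efnb2*, the ligand of EphB1 at the chiasm, nearest at -0.20 ± 0.07 (adjusted p = 0.0581). None of the 5 ephrin-A ligands passed, of which *Efna5* had -0.25 ± 0.10 (adjusted p = 0.0799). Their EphA receptors, listed apart, held 1 called higher (*Epha10*, 1.21 ± 0.37 log2) and 3 called lower (*Epha6*, *Epha7* and *Epha8*, -2.17 to -0.80 log2) of 9, where 2.52% and 1.28% of all tested genes were called. With 6 libraries *Epha10* was not called (adjusted p = 0.131) and the 3 lower ones were.

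Slit ligands and Robo receptors gave 1 gene that passed. *Robo2*, the Slit receptor used by RGC axons, was at 102.8, 105.7 and 105.2 CPM in the GFP libraries and at 87.3, 89.0 and 73.8 CPM in Ezh2 replicates 1 to 3. The groups did not overlap, and the log2 fold change was -0.24 ± 0.06 (edgeR adjusted p = 0.00245, and 0.0545 with 6 libraries). *Robo1* did not pass at -0.06 ± 0.08, and *Slit2* had -0.01 ± 0.14, with a 95% interval of -18.6 to 21.8%. *Slit3* was at 1.20 to 1.47 CPM in GFP and 1.94 and 2.17 CPM in Ezh2 replicates 1 and 2 but at 1.31 CPM in Ezh2 replicate 3, and did not pass (adjusted p = 0.168). The repulsive guidance molecules *Rgma* and *Rgmb* had log2 fold changes of -0.12 and -0.18 (adjusted p = 0.249 and 0.166). *Unc50*, a membrane protein unrelated to the netrin receptors, and *Unc5cl* did not pass (adjusted p = 0.627 and 0.325).

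Since PRC2 favours CpG-rich promoters, the 250 bases before the RefSeq start were read. The 4 windows shown were picked from those of the 13 matched genes that passed, and they lie outside the annotated gene. The pick includes the window with the most CG of all guidance genes, that of *Neo1*. They are those of *Neo1*, *Unc5b* and *Ephb1*, which fell in both fits, and of *Ephb2*, which rose in the 5 libraries. They are RefSeq sequences of mouse build GRCm38.p6, given 5′ to 3′ on the gene's strand, and capitals mark each CG dinucleotide, a motif that reads the same on both strands. *Neo1* (chr9:59036442-59036691, minus strand) held 45 and *Unc5b* (chr10:60831582-60831831, minus strand) held 27. *Ephb1* (chr9:102354694-102354943, minus strand) held 10 and *Ephb2* (chr4:136836013-136836262, minus strand) held 20.
Neo1: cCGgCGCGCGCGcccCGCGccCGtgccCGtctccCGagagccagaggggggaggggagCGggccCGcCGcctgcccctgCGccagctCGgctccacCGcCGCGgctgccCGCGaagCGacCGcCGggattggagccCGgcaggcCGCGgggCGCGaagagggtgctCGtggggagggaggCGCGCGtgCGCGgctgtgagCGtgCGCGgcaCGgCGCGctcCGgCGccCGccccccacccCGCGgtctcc
Unc5b: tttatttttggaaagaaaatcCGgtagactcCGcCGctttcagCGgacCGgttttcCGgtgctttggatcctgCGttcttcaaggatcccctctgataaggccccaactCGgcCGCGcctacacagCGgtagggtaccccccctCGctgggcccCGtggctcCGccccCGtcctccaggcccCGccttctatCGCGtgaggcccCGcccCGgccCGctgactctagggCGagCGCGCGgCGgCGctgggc
Ephb1: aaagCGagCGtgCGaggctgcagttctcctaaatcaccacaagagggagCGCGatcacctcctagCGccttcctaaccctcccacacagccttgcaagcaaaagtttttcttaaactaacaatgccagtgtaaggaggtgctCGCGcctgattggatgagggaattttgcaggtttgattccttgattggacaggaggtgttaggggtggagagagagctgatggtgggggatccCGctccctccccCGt
Ephb2: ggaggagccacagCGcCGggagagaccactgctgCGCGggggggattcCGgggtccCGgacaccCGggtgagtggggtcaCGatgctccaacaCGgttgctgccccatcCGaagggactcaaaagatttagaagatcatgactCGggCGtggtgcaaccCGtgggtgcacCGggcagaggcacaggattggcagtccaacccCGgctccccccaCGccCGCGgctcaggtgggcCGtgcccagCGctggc
Among all 32851 windows of this length, 0.405% held at least as many CG as *Neo1*, 8.56% as *Unc5b*, 17.9% as *Ephb2* and 37.8% as *Ephb1*. Of the 66 genes, 55 matched the promoter table with 72 windows. Their median was 15.5 CG against 6 over all windows, and 68.1% held at least 10 against 37.8%. The 13 matched genes that passed had a median of 19.5 CG over 16 windows, and the 42 that did not had 15 over 56 windows. Both medians lay above that of all windows, and the difference between them was not tested.

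Ezh2 replicate 3 took no part in the 5-library comparison, and its values are given as a description. Since the 16 genes were chosen against the same GFP libraries, agreement of this library with the others is no independent check. *Nrp1*, *Nrp2* and *Ephb2* lay within the GFP range there. All 11 lower genes had their lowest level of the 6 libraries there. The summed markers of B and plasma cells (58.1% of the GFP mean), endothelial and mural cells (70.9%), amacrine cells (77.3%), Müller glia (80.4%) and bipolar cells (83.3%) were also lowest in Ezh2 replicate 3, and regulatory T cell markers were at 689%. Their part in the guidance gene levels of this library was not tested. Between libraries the biological coefficient of variation was 0.0846 with 5 and 0.184 with 6 libraries.

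Other genes of the same pathways were taken from lists of partner receptors and ligands and of intracellular effectors. Among all tested genes, 10.1% passed the adjusted p higher and 7.68% lower with 5 libraries, and 3.08% and 2.7% with 6. Of the 21 partners, 3 rose and 6 fell, with a median log2 fold change of -0.12, and none was called. With 6 libraries 0 rose and 6 fell by edgeR. At an unadjusted p under 0.05, 3 were higher and 9 lower, and the share of all tested genes there was not taken. *Vegfa*, a ligand of Nrp1, fell from 219.5 ± 4.78 to 158.0 ± 6.29 CPM (SD, n = 3 and 2; edgeR adjusted p = 6.39e-08), while Nrp1 itself rose. *Flrt2*, an Unc5 ligand, fell by 0.36 and *Nrcam*, a cell adhesion molecule that acts with Plxna1 and Sema6D at the chiasm, by 0.26 on the log2 scale. *Chl1*, an adhesion molecule that binds Nrp1, rose by 0.29 on the log2 scale in the 5 libraries and did not pass with 6 (adjusted p = 0.214). *Dscaml1*, an adhesion molecule of retinal neurons, had -0.52 in the 5 libraries and passed 1.5-fold at -0.60 with 6 libraries (edgeR adjusted p = 0.0416). Of the 49 effectors, 5 rose and 9 fell, with a median of -0.08, and none was called. With 6 libraries 1 rose and 4 fell. Lower effectors included *Enah*, an actin regulator downstream of Dcc and Robo (-0.38 log2), *Srgap3*, a GTPase-activating protein that binds Robo (-0.28 log2), and *Trim9*, a ubiquitin ligase that binds Dcc (-0.26 log2). The higher ones included the actin-severing *Cfl1* (0.41 log2), the kinase *Fes* (0.50 log2) and *Dpysl3*, a collapsin response mediator (0.37 log2), of which *Fes* and *Dpysl3* did not pass with 6 libraries (adjusted p = 0.0640 and 0.0578).

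Cell type markers other than the Müller list also differed between the groups in the 5 libraries, where 10.1% of all tested genes rose and 7.68% fell. Of 13 markers of microglia and macrophages, 11 rose (4 with 6 libraries), and their sum was 157% and 182% of the GFP mean in Ezh2 replicates 1 and 2 and 122% in Ezh2 replicate 3. The most abundant of these in the libraries was *Lyz2*, lysozyme, at 329 to 380 CPM in GFP and 1223 to 1868 CPM in Ezh2 libraries. The list summed to 2685 to 2977 CPM in the GFP libraries and to 3486 CPM in Ezh2 replicate 3. Without *Lyz2*, the sum in that library was thus not higher than in the GFP libraries. *Plxna1* was higher in all 3 Ezh2 libraries, while *Nrp1* and *Nrp2* were higher in Ezh2 replicates 1 and 2 but not in replicate 3. The part of microglia and macrophages was not tested. Of 9 T cell markers, 8 rose (123 to 202% of the GFP mean), and all 7 cone markers rose (134 to 230%), with 2 of each passing with 6 libraries. Of 8 rod markers, 6 rose (165% and 175%, but 97.7% in Ezh2 replicate 3), and 0 passed with 6 libraries by edgeR. There 3 rod markers were higher at an unadjusted p under 0.05, for which the share of all tested genes was not taken. The astrocyte sum was 143 to 181% of the GFP mean, chiefly through *Gfap*. Amacrine markers summed to 87.6% and 85.8% of the GFP mean in Ezh2 replicates 1 and 2, with 3 of 8 lower and 1 higher. *Tfap2b*, an amacrine transcription factor, went from 10.1 to 12.1 CPM down to 1.03 to 2.20 CPM. The list ran from -2.72 to 2.93 on the log2 scale, the latter being the 1 higher marker, so its members moved far in both directions. The part of amacrine cells in the lower *Dcc* was not tested. Endothelial and mural markers summed to 90.1% and 87.1% of the GFP mean in Ezh2 replicates 1 and 2, with 1 of 8 lower and 0 higher. *Flt1* was the most abundant of them, and 5 of the 8 had positive log2 fold changes, with a median of 0.07. Of the 9 tested RGC markers 3 rose (2 with 6 libraries), and the sum was 112 to 123% of the GFP mean, with none of the 9 lower at the adjusted p threshold. The most abundant gene of this list was *Thy1*, whose product CD90.2 was the target of the sort. The sum is therefore no measure of RGC content alone.

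**Figure D4:**
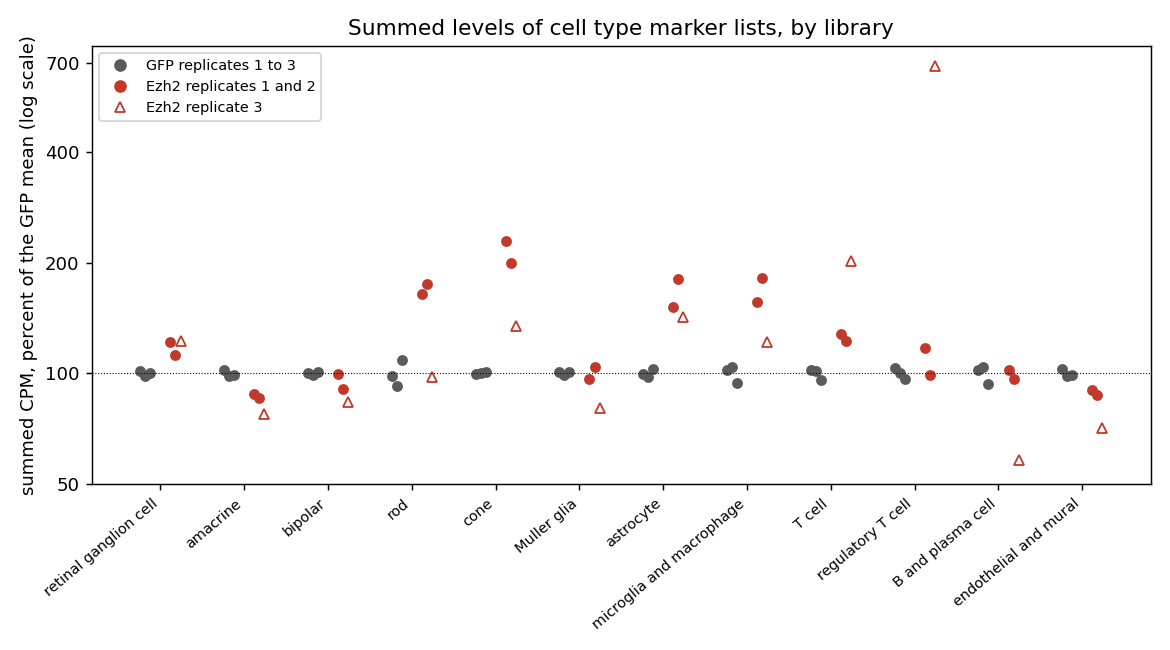
Summed CPM of each cell type marker list as a percentage of its mean in the GFP libraries, on a log axis, 1 point a library. Microglia and macrophage, T cell, cone, astrocyte and RGC sums were higher in the Ezh2 libraries. Amacrine sums and endothelial and mural sums were lower, and Ezh2 replicate 3 (triangles) departed most in regulatory T cell markers at 689%.

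For 13 of the 66 genes, exons overlap those of an antisense gene, among them *Unc5c*, *Ephb1*, *Plxna1* and *Plxnb1*, and for 4 those of a gene on the same strand, *Nrp1* and *Plxnc1* among them. How the counting used strand is not given in the sources used here, so reads of such partners may be included in these values.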

How the data were processed

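The 6 libraries are described by raw read counts per Ensembl gene, which the authors deposited in a single table without normalization, and 0 columns lacked a sample. STAR 2.7.0d and GRCm38 are named in the submitters' processing notes, and the counting program, annotation release and strand setting are not given in the sources used here. Symbols, exon lengths and coordinates came from GENCODE M21 of GRCm38, matched by 55480 of 55573 identifiers. The guidance genes and all gene lists were chosen with earlier results of these data known. Named are all guidance genes with an adjusted p under 0.05, each family's most abundant member, called genes of the pathway lists and leading markers, and others were chosen after their values were seen.

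The excluded library, Ezh2 replicate 3, was inferred from the columns of the study's heatmap. Counts of the other 5 libraries that passed filterByExpr were given TMM factors and entered robust quasi-likelihood F tests in edgeR 4.0.16 (R 4.3.3), two-sided, adjusted by Benjamini-Hochberg over all tested genes, with group as the term. The call thresholds were 0.05 for the adjusted p and 1.5 for the fold change. The fit was tested on simulated data. CPM values used library totals. Libraries of the same group differed beyond sampling noise (chi-square per degree of freedom of 5.07 or more). Floors cover counting error only, since reads carry no molecular identifiers. The alternatives tried were the 6 libraries together, the removal of single libraries, a replicate block, DESeq2 1.42.0, limma 3.58.1 (voom), other scaling, other filters and no fold threshold. Pictures were drawn with matplotlib 3.10.9.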

Additional observations from a re-analysis of the deposited data

Results flagged for a closer look

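In Ezh2 replicate 3, the library outside the 5-library comparison, 3 guidance genes had at least 100 counts and more than 1.5 times the CPM of every other library. *Sema3c*, a class 3 semaphorin, was at 6.70 CPM (241 counts) against 0.651 to 1.39 CPM in the other 5 libraries. *Unc5cl* was at 8.90 CPM (320 counts) against 1.44 to 2.70 CPM. *Efnb3*, an ephrin-B ligand, was at 19.2 CPM (691 counts) against 9.16 to 11.8 CPM, 1.63-fold above the highest of them. None of the 3 passed with 6 libraries.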

How the results depend on the processing

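Counts at the adjusted p threshold moved with the choice of libraries. With all 6 libraries, 1 guidance gene was higher and 6 were lower at the adjusted p threshold, and 498 of all genes were called. Replicate numbers did not pair the libraries (correlations of deviations -0.00454, -0.0199 and -0.00991). With a replicate block, 1 guidance gene was called higher and 1 lower, and 4 and 9 passed the adjusted p. The replicate block with all 6 libraries gave 0 called lower (*Dcc* -1.22, edgeR adjusted p = 0.0671), and 1 higher and 3 lower at the adjusted p. It left 396 called of all genes and 2 of the pathway lists, against 4 in the 5-library comparison. The pathway lists are here the partners, the effectors and the EphA receptors together. All 4 called in the 5-library comparison were EphA receptors. A mean of at least 50 counts left 2 pathway genes called. With no fold threshold, 5 guidance genes were higher and 11 lower, with 3605 of all genes and 29 pathway genes. Leaving out 1 of the 5 libraries gave 1 to 2 guidance genes called higher (2 without GFP replicate 1, where *Unc5d* was added) and 1 lower, 3 to 6 higher (3 without Ezh2 replicate 2) and 9 to 10 lower at the adjusted p, 624 to 794 called of all genes, and 3 to 5 pathway genes. Where 1 Ezh2 library was left, its spread was taken to be that of the GFP libraries. The cause of these moves was not tested.

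*Plxna1*, *Neo1*, *Unc5c* and *Ephb1* passed the adjusted p under all 14 alternatives, and *Dcc* under 13. The other 11 kept their direction but lost the adjusted p in places: *Sema4g* under 11 of the 14, *Plxnb1* under 7 and *Nrp2* under 5. With the replicate block and 5 libraries these 3 had adjusted p values of 0.124, 0.310 and 0.164. Genes near no change turned sign: *Slit2* (0.019 with 6 libraries, 0.027 with the block and 6 libraries, 0.001 with limma-voom, -0.086 to 0.106 without 1 library), *Unc50* (0.059 with 6 libraries, 0.050 with the block and 6 libraries) and *Ntn4* (-0.088 with 6 libraries, -0.005 with the replicate block, -0.096 with both, -0.003 with library totals, -0.038 to 0.055 without 1 library).

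Of the 19 genes under 1 RPKM 1 passed, and the part of depth in this was not tested. Counts cannot separate the cell types of the sorted mixture, and the labels do not say whether replicates are separate animals.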
